A study of Homo sapiens with 14 samples.

Results

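The genes described here encode proteoglycan core proteins, the protein backbones that carry sulfated sugar chains. They are the 4 syndecans SDC1, SDC2, SDC3 and SDC4, the glypicans GPC1 and GPC4, the matrix proteins AGRN and HSPG2, and the chondroitin sulfate proteoglycans CSPG4 and VCAN. They were chosen by name, with earlier results of these data known. They are 10 genes of the 19410 in the deposited table, and 9 of them were among the 13540 genes tested. GPC4 had 1 read in 1 parental library and no read in the other 13, and it could not be tested. A count of 3 reads is the limit that a count of 0 allows. GPC4 RNA was therefore under this floor in the 13 libraries without a read. The limit does not apply to the parental library with 1 read, where GPC4 was only seen to be very low.

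Syndecans span the plasma membrane and glypicans are tethered to its outer face by a lipid anchor. Both carry heparan sulfate chains, which bind growth factors, morphogens and matrix proteins and present them to signalling receptors. AGRN (agrin) and HSPG2 (perlecan) are secreted heparan sulfate proteoglycans of basement membranes, and VCAN (versican) is a secreted chondroitin sulfate proteoglycan that binds hyaluronan. CSPG4, also known as NG2, is a transmembrane chondroitin sulfate proteoglycan found on melanoma cells, pericytes and some breast cancers. AGRN, HSPG2 and VCAN are therefore matrix proteins rather than surface-anchored ones.

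The cells were MDA-MB-231, an established human triple-negative breast cancer line, either parental or edited with CRISPR/Cas9 to give 6 derived lines, and their mRNA was sequenced. SAP30-KO1 and SAP30-KO2 target SAP30, a subunit of the SIN3 histone deacetylase complex. SIN3A+SIN3B-DKO1 and SIN3A+SIN3B-DKO2 target both SIN3 scaffold proteins, and MLL1-KO1 and MLL1-KO2 target the histone methyltransferase MLL1. Each of the 7 conditions had 2 libraries, no sample label names a treatment, and a single pair of parental libraries served as the control for all 6 lines. The edited lines had been through sgRNA delivery, puromycin selection and choice of single cells. No library is labelled as a control line taken through these steps, and their part in the differences from parental was not tested. The edited lines are mixtures of amplified single knockout cells, so a line is a pool of clones, and no source used here says that the libraries of a condition came from separate cultures. P values then measure the spread between these libraries, which may be technical. In bulk RNA, fewer cells with a transcript and less transcript per cell cannot be told apart.

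Levels are TPM, a unit that corrects for gene length and is relative to all RNA of a library. Libraries held 18415036 to 23162682 reads. SAP30 RNA was 78.9 and 82.8 TPM in parental cells and 2.75 to 4.96 TPM in the 4 SAP30-KO libraries. The row for MLL1, listed as MLL, was 49.0 and 56.7 TPM in parental cells, 15.8 to 27.7 TPM in MLL1-KO libraries, and also 23 to 35.4 TPM in SAP30-KO libraries. Over a window of 51 genes that includes the gene itself, the median log2 deviation from each gene's mean over all libraries was taken in each library. The median change of the genes around a gene is the mean of this value in a line minus that in parental cells. For MLL it was -0.86 and -0.91 in the SAP30-KO lines and -0.94 and -0.42 in the MLL1-KO lines. MLL itself was at -0.95, -0.65, -1.64 and -0.97 in the same order. The part of this regional change in the MLL values was not tested. SIN3B RNA fell from 75.1 and 77.4 TPM to 43.5 to 50.2 TPM in the libraries labelled SIN3A+SIN3B-DKO, whereas SIN3A was 55.1 to 62.5 TPM there against 43.1 and 45.4 TPM in parental cells. An edit of a reading frame need not lower RNA, so SIN3A RNA does not check that label. Of the markers of MDA-MB-231 cells, VIM was 5740 to 8800 TPM and AXL 711 to 1000 TPM, and CD44 and CAV1 were 267 to 659 TPM. Of 4 markers low or absent in these cells, ESR1, PGR and CDH1 did not exceed 1.25 TPM, but EPCAM was 5.33 to 19.2 TPM. Of 6 markers of blood, endothelium and fibroblasts, 5 stayed at or below 1.05 TPM and PECAM1 was 1.55 to 3.97 TPM.

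The upstream sequences of HSPG2, CSPG4 and VCAN are shown. In the MLL1-KO lines, HSPG2 and CSPG4 had the lowest levels relative to parental of the tested members. VCAN rose in both SIN3A+SIN3B-DKO lines from 18 to 20 parental reads. Each is the 250 bases before the RefSeq start on GRCh38.p14, on the strand of the gene and 5′ to 3′, with CpG dinucleotides in capitals.
HSPG2, chr1:21937311-21937560, minus strand: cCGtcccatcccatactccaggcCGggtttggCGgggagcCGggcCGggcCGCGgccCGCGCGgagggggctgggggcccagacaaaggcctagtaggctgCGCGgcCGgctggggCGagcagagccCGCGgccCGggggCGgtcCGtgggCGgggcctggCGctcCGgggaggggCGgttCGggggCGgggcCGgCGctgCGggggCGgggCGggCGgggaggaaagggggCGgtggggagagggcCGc
CSPG4, chr15:75712849-75713098, minus strand: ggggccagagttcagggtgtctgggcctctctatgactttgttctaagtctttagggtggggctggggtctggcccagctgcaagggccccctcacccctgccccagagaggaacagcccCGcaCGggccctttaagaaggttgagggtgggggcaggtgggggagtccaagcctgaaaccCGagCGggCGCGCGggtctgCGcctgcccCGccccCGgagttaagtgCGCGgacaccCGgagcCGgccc
VCAN, chr5:83471494-83471743, plus strand: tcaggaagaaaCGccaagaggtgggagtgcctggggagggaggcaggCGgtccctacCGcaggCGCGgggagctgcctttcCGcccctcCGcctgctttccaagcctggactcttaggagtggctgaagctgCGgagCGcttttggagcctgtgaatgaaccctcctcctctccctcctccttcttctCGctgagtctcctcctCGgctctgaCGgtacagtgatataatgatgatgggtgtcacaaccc
The HSPG2 window held 33 CpG, a number reached by 8.15% of 35116 RefSeq promoter windows of this length, whose median was 11. CSPG4 held 14 and VCAN 12, reached by 44.8% and 48.5% of windows. Among the other members with a single entry, SDC3 held 37, GPC1 36, GPC4 32 and SDC4 26. The letters GGGCGG, the core of a GC box, were searched on both strands and every match was counted. There were 8 in HSPG2, 8 in SDC4, 5 in SDC3, 4 in GPC1, 2 in GPC4 and 1 each in CSPG4 and VCAN, and 42.6% of all windows held at least 1. None of these 7 windows held TATAAA on the strand of the gene, which 6.8% of windows did. No window of SDC1, SDC2 or AGRN was analysed here.

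The members were first compared with parental cells in each line. A gene was called when its adjusted p from limma (Benjamini-Hochberg) was under 0.05 and it differed at least 1.5-fold on the log2(TPM + 0.5) scale, on which all log2 fold changes are given. In SAP30-KO1, 4 of the 9 tested members were called lower and none higher, where 7.86% of all genes were called lower and 7.8% higher. In SAP30-KO2, 2 members were called lower and none higher, against 8.12% and 7.44% of all genes. In SIN3A+SIN3B-DKO1, 5 were lower and 1 higher, against 8.66% and 7.76%. In SIN3A+SIN3B-DKO2, 3 were lower and 1 higher, against 7.56% and 6.0%. MLL1-KO1 had 5 lower and 1 higher, against 16.3% and 6.89%. MLL1-KO2 had 4 lower and 2 higher, against 14.9% and 10.2%. The 6 comparisons share the parental libraries, and the members called differed between lines as described for each gene.

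The median log2 fold change of the 9 members was -0.52 in SAP30-KO1, where that of all genes was 0.03. The other medians of the members were -0.51 (SAP30-KO2), -0.60 (SIN3A+SIN3B-DKO1), -0.29 (SIN3A+SIN3B-DKO2), -0.72 (MLL1-KO1) and -0.36 (MLL1-KO2), while medians of all genes lay between -0.09 and 0.03. The members were chosen with earlier results of these data known. VCAN also passed the filter on low values only through the SIN3A+SIN3B-DKO libraries, in which it is high. These counts and medians are therefore descriptions, and the values of all genes beside them are no test of the set.

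**Figure D1:**
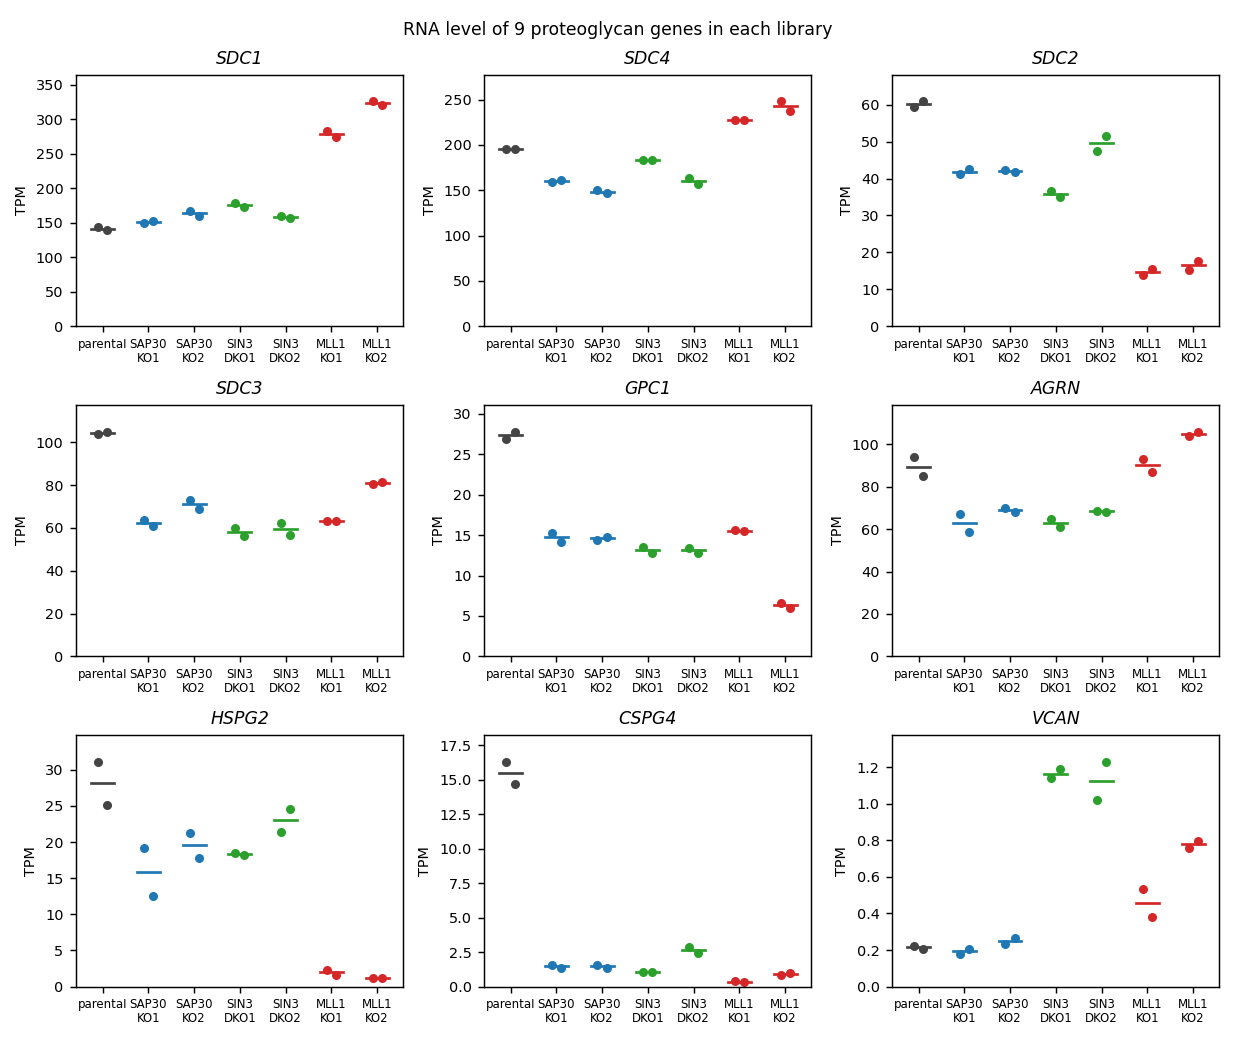
RNA level in TPM (vertical axes, linear, from 0) of the 9 tested members in each library. Points are the 2 libraries of each of 7 conditions and bars are their means, with parental in grey, SAP30-KO in blue, SIN3A+SIN3B-DKO (SIN3 DKO) in green and MLL1-KO in red. CSPG4 was 14.7 and 16.3 TPM in parental cells and at most 2.88 TPM in any edited library.

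**Figure D2:**
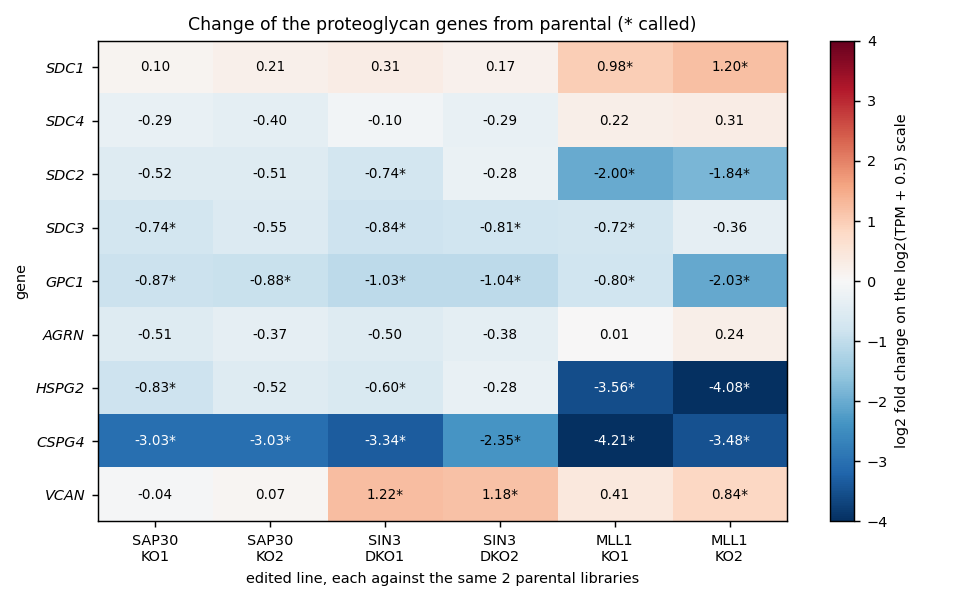
Log2 fold change of each tested member (rows) in each edited line (columns) from parental, on the log2(TPM + 0.5) scale, with blue lower, red higher and an asterisk on called values. GPC1 and CSPG4 were called lower in each of the 6 lines, and SDC1 was called higher in MLL1-KO1 and MLL1-KO2.

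Among the syndecans, the direction differed from gene to gene. SDC1 (chr2:20400558-20425194 on GRCh37, minus strand), the main syndecan of epithelial cells, was 144 and 139 TPM in parental cells. The MLL1-KO1 libraries held 283 and 274 TPM, and those of MLL1-KO2 held 326 and 321 TPM. In the SAP30-KO and SIN3A+SIN3B-DKO libraries it was 150 to 178 TPM, so that all 12 edited libraries lay above both parental libraries. SDC1 rose by 0.98 (MLL1-KO1) and 1.19 (MLL1-KO2) on the log2 scale (SE 0.03, adjusted p = 1.8e-09 and 2.9e-10 from limma), or 1.97-fold and 2.29-fold in TPM. In the other 4 lines the log2 fold change was 0.10 to 0.31, under the fold minimum, with adjusted p between 2.2e-05 and 0.028. Between neighbours in the order of levels, SAP30-KO2, SIN3A+SIN3B-DKO2 and SAP30-KO1 did not differ beyond their spread, and every other step passed an adjusted p of 0.05.

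SDC2 (chr8:97506041-97624018, plus strand), a syndecan of mesenchymal cells, moved the other way. It was 59.5 and 60.9 TPM in parental cells. MLL1-KO1 held 13.9 and 15.4 TPM, and MLL1-KO2 held 15.3 and 17.7 TPM. The 8 libraries of the other lines held 35.1 to 51.5 TPM, between the MLL1-KO and parental libraries with no overlap. SDC2 fell in both MLL1-KO lines, with log2 fold changes of -2.01 (MLL1-KO1) and -1.84 (MLL1-KO2), SE 0.07 (adjusted p = 2.3e-09 and 3.5e-09), to 24.3% and 27.5% of the parental level. It was also called lower in SIN3A+SIN3B-DKO1 (-0.74, adjusted p = 9.7e-06), at 36.7 and 35.1 TPM. The values were -0.52 and -0.51 for the SAP30-KO lines and -0.28 for SIN3A+SIN3B-DKO2, under the fold minimum. The median change of the 51 genes around SDC2 was -0.20 and -0.22 in the SAP30-KO lines, -0.33 and -0.27 in the SIN3A+SIN3B-DKO lines, and -0.42 and -0.45 in the MLL1-KO lines. With that median subtracted in each library, SDC2 in SIN3A+SIN3B-DKO1 was at -0.40 and no longer called, while both MLL1-KO calls held at -1.58 and -1.39. In the order of levels, neither the SAP30-KO lines nor the MLL1-KO lines differed from each other, and the other steps passed an adjusted p of 0.05.

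SDC3 (chr1:31342313-31381605, minus strand), best known from the nervous system, was 104 and 105 TPM in parental cells. SAP30-KO1 held 63.5 and 61.0 TPM, SAP30-KO2 73.0 and 69.0, SIN3A+SIN3B-DKO1 59.9 and 56.1, SIN3A+SIN3B-DKO2 62.2 and 56.8, MLL1-KO1 63.1 and 63.1, and MLL1-KO2 80.5 and 81.7 TPM. All 12 edited libraries lay below the parental ones. SDC3 fell in SAP30-KO1 (-0.74), SIN3A+SIN3B-DKO1 (-0.84), SIN3A+SIN3B-DKO2 (-0.81) and MLL1-KO1 (-0.72, SE 0.05, adjusted p from 3e-07 to 6.9e-07). SAP30-KO2 differed by -0.55 and MLL1-KO2 by -0.36, both under 1.5-fold. The SAP30-KO2 value sat near the fold minimum and was called (-0.59) when SAP30-KO2 replicate 1 was left out. In the order of levels, MLL1-KO1, SAP30-KO1 and both SIN3A+SIN3B-DKO lines did not differ between neighbours, and the steps above them did.

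SDC4 (chr20:43953928-43977064, minus strand), a syndecan of focal adhesions, was the most abundant member in parental cells at 196 and 196 TPM. It was not called in any line. The 8 SAP30-KO and SIN3A+SIN3B-DKO libraries held 147 to 183 TPM, all below parental, and the 4 MLL1-KO libraries held 228 to 248 TPM, all above. The log2 fold changes were -0.29 and -0.40 in the SAP30-KO lines, -0.10 and -0.29 in the SIN3A+SIN3B-DKO lines, and 0.22 and 0.31 in the MLL1-KO lines (SE 0.03), each with an adjusted p of 0.018 or less. The only neighbours in its order that did not differ were SAP30-KO1 and SIN3A+SIN3B-DKO2.

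Summed over the 4 genes, syndecan RNA was 503 and 500 TPM in parental cells, 413 to 457 TPM in the SAP30-KO and SIN3A+SIN3B-DKO libraries, and 581 to 670 TPM in the MLL1-KO libraries. The make-up of the sum also differed. SDC1 made up 28.6% and 27.7% of it in parental cells, 36.3% to 38.9% in the 8 SAP30-KO and SIN3A+SIN3B-DKO libraries, and 47.2% to 48.8% in the 4 MLL1-KO libraries. SDC2 made up 11.8% and 12.2% in parental cells, 7.87% to 12.2% in the 8 libraries, and 2.29% to 2.69% in MLL1-KO libraries. There were 2.42 and 2.27 SDC1 transcripts per SDC2 transcript in parental cells, 3.05 to 4.91 in the 8 libraries and 17.8 to 21.3 in MLL1-KO libraries. The 3 sets of libraries did not overlap in this ratio, which was not tested separately because it rests on the same values as the tests of SDC1 and SDC2.

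**Figure D3:**
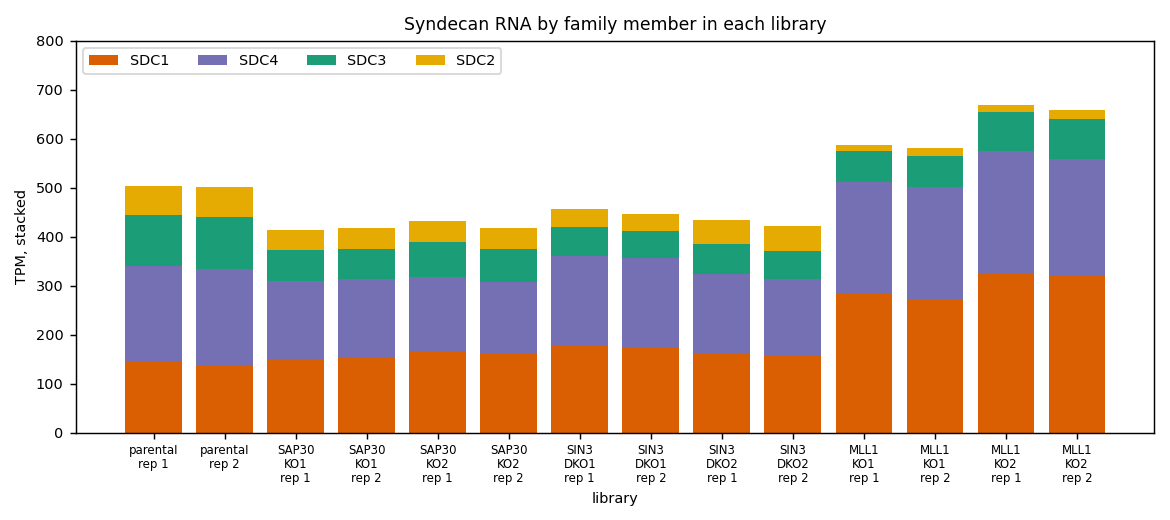
RNA of the 4 syndecans in each of the 14 libraries, stacked in TPM (vertical axis, linear, from 0), with SDC1 in orange, SDC4 in purple, SDC3 in green and SDC2 in yellow. The sum was 500 to 503 TPM in parental cells and 581 to 670 TPM in MLL1-KO libraries, where SDC1 took the largest share.

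GPC1 (chr2:241375080-241407493, plus strand), the only tested glypican among the members, was 26.9 and 27.8 TPM in parental cells and lower in all 12 edited libraries. SAP30-KO1 held 15.3 and 14.2 TPM, SAP30-KO2 14.4 and 14.8, SIN3A+SIN3B-DKO1 13.5 and 12.8, SIN3A+SIN3B-DKO2 13.4 and 12.8, MLL1-KO1 15.6 and 15.5, and MLL1-KO2 6.57 and 6.04 TPM. The other 5 lines lay close together at 12.8 to 15.6 TPM, and MLL1-KO2 stood apart below them. GPC1 fell in each line, with log2 fold changes of -0.87, -0.88, -1.03, -1.04, -0.79 and -2.03 in the same order (SE 0.06, largest adjusted p = 1.3e-06), to 47.8% to 56.9% of parental in the 5 lines and to 23.1% in MLL1-KO2. Steps between neighbours among the 5 lines in the order of levels did not pass an adjusted p of 0.05. Lines further apart in that order did. SIN3A+SIN3B-DKO1 and SIN3A+SIN3B-DKO2 were at -0.24 and -0.24 from MLL1-KO1 (adjusted p = 0.0083 and 0.0076), under the fold minimum. The median change of the 51 genes around GPC1 was -0.80 in MLL1-KO2 and 0.01 to 0.05 in the other lines. With it subtracted in each library, GPC1 in MLL1-KO2 was at -1.23 and still called.

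Of the basement membrane proteoglycans, HSPG2 fell in the MLL1-KO lines and AGRN was not called there. HSPG2 (chr1:22148737-22263803, minus strand) was 31.1 and 25.2 TPM in parental cells. MLL1-KO1 held 2.24 and 1.65 TPM, and MLL1-KO2 held 1.14 and 1.24 TPM. These 4 libraries still held 110 to 261 HSPG2 reads each, against 2526 and 3200 in parental cells. HSPG2 fell in both MLL1-KO lines, by log2 fold changes of -3.56 and -4.08 (SE 0.19, adjusted p = 4.3e-08 and 1.3e-08), to 6.89% and 4.21% of the parental level. The 51 genes around HSPG2 had a median change of -0.15 and -0.12 in these lines.

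Among the other lines, SAP30-KO1 held 19.2 and 12.5 TPM of HSPG2, SAP30-KO2 21.3 and 17.8, SIN3A+SIN3B-DKO1 18.5 and 18.2, and SIN3A+SIN3B-DKO2 21.4 and 24.6 TPM. All 8 libraries lay below the parental ones, but its libraries of a condition were further apart than those of most members. HSPG2 was called lower in SAP30-KO1 (-0.84, adjusted p = 0.0036) and in SIN3A+SIN3B-DKO1 (-0.60, adjusted p = 0.02), and not in SAP30-KO2 (-0.52, adjusted p = 0.041, under 1.5-fold) or SIN3A+SIN3B-DKO2 (-0.28, adjusted p = 0.24). The SAP30-KO1 call was lost without SAP30-KO1 replicate 2 (-0.53) and when only the libraries compared were fitted. The SIN3A+SIN3B-DKO1 call was lost without parental replicate 1 (-0.45), without SIN3A+SIN3B-DKO1 replicate 1 (-0.61) and without its replicate 2 (-0.58). It was also lost with a pseudocount of 1 (-0.58), quantile normalization (-0.58), voom (-0.58) and neighbours subtracted (-0.56). HSPG2 was called in SAP30-KO2 without parental replicate 2 (-0.66). From parental down to SAP30-KO1, no step in the order of its levels passed an adjusted p of 0.05, and the step from SAP30-KO1 to MLL1-KO1 was 2.72 (SE 0.19, adjusted p = 4.6e-07).

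AGRN (chr1:955500-991498, plus strand), which organises acetylcholine receptors at the neuromuscular junction and binds dystroglycan, was called in none of the 6 lines. It was 94.0 and 85.0 TPM in parental cells. SAP30-KO1 held 67.0 and 58.8 TPM, SAP30-KO2 70.1 and 68.1, SIN3A+SIN3B-DKO1 64.6 and 61.2, and SIN3A+SIN3B-DKO2 68.7 and 68.3 TPM. In the MLL1-KO lines it was 93.2 and 87.1 TPM (MLL1-KO1) and 104 and 106 TPM (MLL1-KO2). The 8 SAP30-KO and SIN3A+SIN3B-DKO libraries lay below all parental and MLL1-KO libraries. Their log2 fold changes were -0.51, -0.37, -0.50 and -0.38 (SE 0.07, adjusted p of 0.00072 or less), or 1.3-fold to 1.42-fold lower, under the fold minimum. AGRN was called in SAP30-KO1 (-0.60) when SAP30-KO1 replicate 1 was left out. The MLL1-KO1 difference from parental was 0.01, with a 95% interval of -0.13 to 0.15, and that of MLL1-KO2 was 0.24 (adjusted p = 0.0083). No step between neighbours among the SAP30-KO and SIN3A+SIN3B-DKO lines passed an adjusted p of 0.05.

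CSPG4 (chr15:75966663-76005189, minus strand) was lowered in each line. It was 16.3 and 14.7 TPM in parental cells. SAP30-KO1 held 1.56 and 1.37 TPM, SAP30-KO2 1.59 and 1.34, SIN3A+SIN3B-DKO1 1.09 and 1.07, SIN3A+SIN3B-DKO2 2.88 and 2.43, MLL1-KO1 0.37 and 0.36, and MLL1-KO2 0.855 and 1.01 TPM. No edited library came near the parental libraries, and reads fell from 855 and 972 to between 24 and 201. The mean TPM was 10.6-fold lower in each SAP30-KO line, 14.3-fold lower in SIN3A+SIN3B-DKO1, 5.84-fold lower in SIN3A+SIN3B-DKO2, 42.5-fold lower in MLL1-KO1 and 16.7-fold lower in MLL1-KO2. The log2 fold changes ran from -2.35 in SIN3A+SIN3B-DKO2 to -4.21 in MLL1-KO1 (SE 0.13, largest adjusted p = 2.6e-07). The pseudocount makes these values smaller than the TPM ratios for so low a gene. SIN3A+SIN3B-DKO2 was the highest edited line and MLL1-KO1 the lowest, each past an adjusted p of 0.05 from its neighbour, and the steps between neighbours among the other 4 lines did not pass it. Beyond neighbours, SAP30-KO1 and SAP30-KO2 were at 0.46 and 0.46 from MLL1-KO2 (adjusted p = 0.012 and 0.013), under the fold minimum. Genes around CSPG4 had median changes between -0.04 and 0.13. SIN3A, a target of the edit in the SIN3A+SIN3B-DKO lines, lies near CSPG4 at chr15:75661720-75748183. Any part of that edit in the CSPG4 values was not tested. The annotation lists CSPG4 pseudogene copies on chromosomes 15 and Y, and how reads shared with them were counted is not given in the sources used here.

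VCAN (chr5:82767437-82878122, plus strand) stayed low throughout and was the only tested member with higher RNA in the SIN3A+SIN3B-DKO lines by the fold minimum. It was 0.224 and 0.207 TPM in parental cells, or 18 to 20 reads. SAP30-KO1 held 0.179 and 0.208 TPM, SAP30-KO2 0.231 and 0.265, SIN3A+SIN3B-DKO1 1.14 and 1.19, SIN3A+SIN3B-DKO2 1.02 and 1.23, MLL1-KO1 0.533 and 0.381, and MLL1-KO2 0.761 and 0.796 TPM. The SIN3A+SIN3B-DKO libraries were highest and those of SAP30-KO1 overlapped the parental ones. SAP30-KO2 lay just above parental, by a log2 fold change of 0.06 (adjusted p = 0.78). No step between neighbours in the order of levels passed an adjusted p of 0.05. VCAN rose in SIN3A+SIN3B-DKO1 (1.22, SE 0.17, adjusted p = 0.00012), SIN3A+SIN3B-DKO2 (1.18, adjusted p = 0.00018) and MLL1-KO2 (0.84, adjusted p = 0.0012). In TPM these were 5.41-fold, 5.23-fold and 3.61-fold. In MLL1-KO1 it was 0.42 (adjusted p = 0.053), or 2.12-fold in TPM, and the call there depended on the pseudocount and the scaling, being made at 1.09 under quantile normalization and at 0.81 with a pseudocount of 0.1. With a pseudocount of 1 the MLL1-KO2 call was lost (0.55). Because VCAN passed the filter through its highest group, its rise there is a description of a low gene and not support for a wider statement.

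Lines of the same genotype were then compared directly. Between SAP30-KO1 and SAP30-KO2 no member was called by limma, where 0.148% of all genes were. At an unadjusted p under 0.05 there were 3 members, SDC3, SDC1 and SDC4, with differences from -0.19 to 0.10, and 1796 of all 13540 genes passed at that level. Between SIN3A+SIN3B-DKO1 and SIN3A+SIN3B-DKO2, 1 member was called, against 2.23% of all genes. This was CSPG4, lower in SIN3A+SIN3B-DKO1 by a log2 difference of -0.99 (SE 0.13, adjusted p = 0.0012), and it was not called when only the libraries of these lines were fitted. Between MLL1-KO1 and MLL1-KO2, 2 members were called, against 10.4% of all genes. CSPG4 was lower in MLL1-KO1 (-0.72, adjusted p = 0.0014), and GPC1 was higher in MLL1-KO1 (1.24, SE 0.06, adjusted p = 1.7e-07). With the median of neighbouring genes subtracted, the GPC1 difference was 0.42 and no longer called. The CSPG4 difference lost its call under quantile normalization (-0.51) and with a pseudocount of 1 (-0.50). HSPG2 differed by 0.52 between the MLL1-KO lines, under the fold minimum, and was called (0.70) without MLL1-KO1 replicate 2. It was also called with a pseudocount of 0.1 (0.653) and under quantile normalization (0.615). VCAN differed by -0.42 between these lines and was called with voom (-0.758).

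The genotypes were compared through the means of their lines, a test that does not use the parental libraries except for the estimate of spread. The MLL1-KO lines differed from the SAP30-KO lines at 6 of 9 members, against 19.8% of all genes. HSPG2 (-3.14, SE 0.13), SDC2 (-1.41, SE 0.05) and CSPG4 (-0.82, SE 0.09) were lower in MLL1-KO, and SDC1 (0.93, SE 0.02), VCAN (0.62, SE 0.12) and SDC4 (0.61, SE 0.02) were higher, each with an adjusted p of 0.0008 or less from limma. Against the SIN3A+SIN3B-DKO lines 4 members were called, against 19.9% of all genes. HSPG2 (-3.38), SDC2 (-1.41) and CSPG4 (-1.01) were lower in MLL1-KO and SDC1 (0.85) was higher, with adjusted p of 3.1e-06 or less. AGRN was higher in MLL1-KO in both comparisons by 0.56 and 0.57 (95% intervals 0.46 to 0.66 and 0.46 to 0.67), just under the fold minimum. For CSPG4 the result differed between single lines. SAP30-KO1, SAP30-KO2 and SIN3A+SIN3B-DKO1 were above MLL1-KO2 by 0.46, 0.46 and 0.15, not called. SIN3A+SIN3B-DKO2 was above MLL1-KO2 by 1.14 and called. Above MLL1-KO1, these lines lay by 1.18, 1.18, 0.87 and 1.86 in the same order, all called.

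Several of these calls sat near the fold minimum. AGRN passed it against SAP30-KO without SAP30-KO1 replicate 1 (0.61) or MLL1-KO1 replicate 2 (0.58), and against SIN3A+SIN3B-DKO without SIN3A+SIN3B-DKO1 replicate 1 (0.58) or MLL1-KO1 replicate 2 (0.59). It also passed against SAP30-KO under quantile normalization (0.62), median ratio scaling (0.66) and voom (0.60), and against SIN3A+SIN3B-DKO under these (0.64, 0.65 and 0.59) and with neighbours subtracted (0.59). VCAN against SAP30-KO lost its call without MLL1-KO1 replicate 1 (0.56) and with a pseudocount of 1 (0.40). VCAN against SIN3A+SIN3B-DKO, at -0.57, passed it without that library (-0.63), without SIN3A+SIN3B-DKO1 replicate 1 (-0.59) or without SIN3A+SIN3B-DKO2 replicate 1 (-0.62), with a pseudocount of 0.1 (-0.84) and with voom (-0.92). CSPG4 in MLL1-KO against SAP30-KO was -0.47 and not called under quantile normalization, which shifted the median of all genes upward by 0.10 in that comparison and by 0.13 in MLL1-KO1 against parental. Under that scaling the split of lower and higher genes was 1545 and 1451 for MLL1-KO1, against 2210 and 933 as deposited, and 1680 and 1788 for MLL1-KO2, against 2021 and 1387.

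Between the SAP30-KO and SIN3A+SIN3B-DKO lines 1 member was called, against 7.47% of all genes. It was VCAN, lower in SAP30-KO by -1.19 (SE 0.12, adjusted p = 1.3e-05). VCAN passed the filter on low values only through the SIN3A+SIN3B-DKO libraries, in which it is high. This difference is therefore a description of a low gene, and its p value is no support for it. For 4 of the remaining members the 95% interval of the difference included 0: AGRN (-0.10 to 0.11), SDC2 (-0.12 to 0.11), CSPG4 (-0.40 to 0.02) and HSPG2 (-0.53 to 0.06). These intervals cover the spread between libraries and not that between lines. CSPG4 in SAP30-KO1 was at 0.31 against SIN3A+SIN3B-DKO1 (limma adjusted p = 0.091) and at -0.68 against SIN3A+SIN3B-DKO2 (adjusted p = 0.0027). SDC2 in SAP30-KO1 was at 0.22 and -0.24 against the same lines (adjusted p = 0.033 and 0.026). SDC1, SDC3, SDC4 and GPC1 differed by -0.15 to 0.18 with adjusted p from 0.00018 to 0.015, under the fold minimum.

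**Figure D4:**
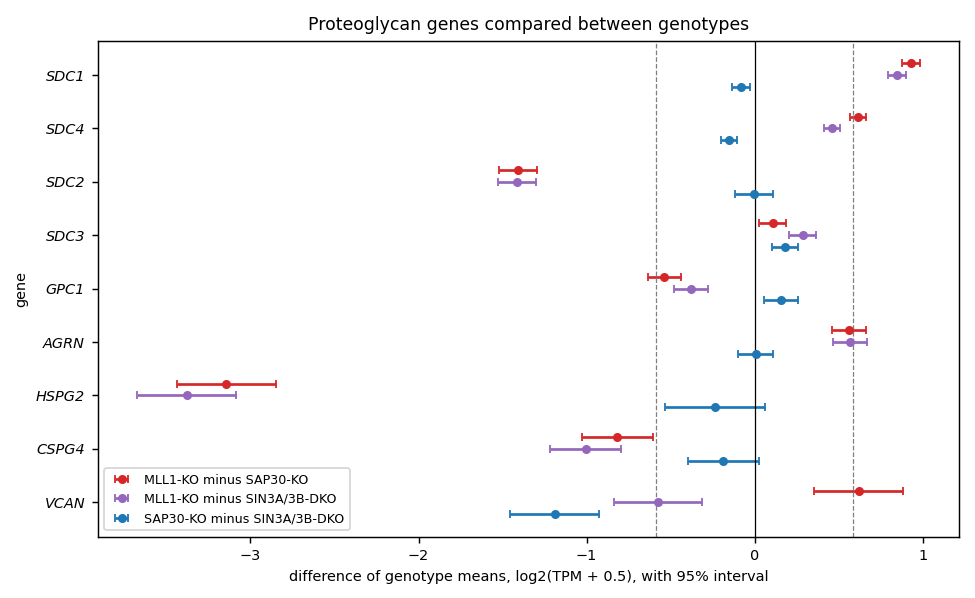
Difference between genotype means for each tested member on the log2(TPM + 0.5) scale (horizontal axis), with MLL1-KO minus SAP30-KO in red, MLL1-KO minus SIN3A+SIN3B-DKO in purple and SAP30-KO minus SIN3A+SIN3B-DKO in blue. Points are estimates over 2 lines a genotype, bars are 95% intervals from the spread between libraries and dashed lines mark 1.5-fold. HSPG2 stands furthest from 0, at -3.14 and -3.38 in MLL1-KO against the other genotypes.

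Core proteins carry sugar chains and bind partner proteins, and 5 further lists of genes were counted in the same fits. These lists were also chosen with earlier results of these data known, so their counts are descriptions. Of 25 other core proteins, 10 were tested. In the SAP30-KO lines 3 and 2 were called lower (7.86% and 8.12% of all genes) and 2 and 2 higher (7.8% and 7.44%). The counts were 5 and 4 lower (8.66% and 7.56% of all genes) and 1 and 1 higher (7.76% and 6.0%) in the SIN3A+SIN3B-DKO lines. They were 4 and 3 lower (16.3% and 14.9%) and 4 and 3 higher (6.89% and 10.2%) in the MLL1-KO lines. The same shares of all genes apply to the lists that follow. The medians ran from -0.59 in SIN3A+SIN3B-DKO1 to 0.20 in MLL1-KO2. SRGN, the serglycin of secretory granules, was 493 TPM in parental cells and rose to 926, 905, 917 and 751 TPM in the SAP30-KO and SIN3A+SIN3B-DKO lines (0.91, 0.88, 0.90 and 0.61). TGFBR3 (betaglycan), a TGF-beta co-receptor, fell from 23.4 to 11.6 and 7.74 TPM in the SIN3A+SIN3B-DKO lines and to 6.20 and 8.39 TPM in the MLL1-KO lines (-1.83 and -1.43). CSPG5 fell from 4.26 to 1.25 and 2.08 TPM in the SIN3A+SIN3B-DKO lines and to 1.22 and 2.19 TPM in the MLL1-KO lines. SPOCK1 (testican-1) rose from 0.568 to 4.36 and 9.5 TPM in the MLL1-KO lines. It also rose in both SAP30-KO lines, to 1.65 and 1.99 TPM.

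Among 29 genes that build the linkage region and heparan sulfate, 22 were tested. In MLL1-KO1, 7 were called lower and none higher, where 16.3% and 6.89% of all genes were, with a median of -0.37 against -0.09 for all genes. In MLL1-KO2, 2 were lower and 3 higher, against 14.9% and 10.2% of all genes. The SAP30-KO lines had 1 lower and 1 higher each, SIN3A+SIN3B-DKO1 had none lower and 2 higher, and SIN3A+SIN3B-DKO2 had 1 lower and 2 higher. PAPSS2, which makes the sulfate donor used by all sulfotransferases, fell from 96.8 to 24.7 and 28.8 TPM in the MLL1-KO lines (-1.95 and -1.73, SE 0.04, adjusted p = 3.9e-11 and 5e-11). UGDH, which makes UDP-glucuronic acid, a building block of both heparan and chondroitin sulfate, rose from 83.3 TPM to 237 and 242 TPM (SAP30-KO lines) and to 206 and 168 TPM (SIN3A+SIN3B-DKO lines) (1.5, 1.54, 1.30 and 1.01, SE 0.04). In MLL1-KO1 UGDH fell to 55.2 TPM (-0.59), and in MLL1-KO2 it was 72.3 TPM (-0.20). B4GALT7, a galactosyltransferase of the linkage region, rose from 19.9 to 34.9 and 38.6 TPM in the SIN3A+SIN3B-DKO lines. B3GAT3, which completes the linkage region, fell from 36.4 to 19.3 and 21.7 TPM in the SAP30-KO lines.

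Of 16 genes for chondroitin and dermatan sulfate, 15 were tested, and no line had more than 1 lower or 3 higher. CHST15, a sulfotransferase of chondroitin sulfate, fell from 44.5 to 25.4 and 28.8 TPM in the SIN3A+SIN3B-DKO lines (-0.80 and -0.62) and was 60 and 52.8 TPM in the MLL1-KO lines. Of 12 genes that edit or break down heparan sulfate, 9 were tested. There were 1, 1, 3 and 1 higher and none lower in the SAP30-KO and SIN3A+SIN3B-DKO lines, 2 lower in MLL1-KO1, and 1 lower and 2 higher in MLL1-KO2. SGSH, a lysosomal sulfamidase, rose from 18.3 to 32.9 and 30.2 TPM in the SIN3A+SIN3B-DKO lines and to 29.7 TPM in MLL1-KO2. NAGLU, a lysosomal glucosaminidase, fell from 21.9 to 9.68 and 14 TPM in the MLL1-KO lines. IDUA, the lysosomal iduronidase, rose from 4.84 to 8.87 and 8.85 TPM in the SAP30-KO lines, and MLL1-KO2 reached 10.9 TPM.

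Of 14 binding partners, 10 were tested. In the MLL1-KO lines 5 and 4 were called lower, against 16.3% and 14.9% of all genes, and 2 and 2 higher, against 6.89% and 10.2%. Each of the other lines had 1 lower, or 2 in SAP30-KO1, and none higher. DAG1 (dystroglycan), a receptor for AGRN and HSPG2, fell from 184 to 88.6 and 83.7 TPM in the MLL1-KO lines (-1.05 and -1.13, SE 0.04). LRP4, the AGRN receptor of muscle, fell from 5.66 to 2.58 and 1.94 TPM in the MLL1-KO lines, to 3.45 TPM in SAP30-KO1 and to 2.78 TPM in SIN3A+SIN3B-DKO1. The hyaluronan synthases HAS2 and HAS3, which make the polymer that VCAN binds, both rose in the MLL1-KO lines. HAS2 went from 11.1 to 20.3 and 35.0 TPM and HAS3 from 1.86 to 5.45 and 4.48 TPM. HAS2 fell in SAP30-KO1, SAP30-KO2 and SIN3A+SIN3B-DKO2, to 6.86, 7.14 and 6.5 TPM.

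**Figure D5:**
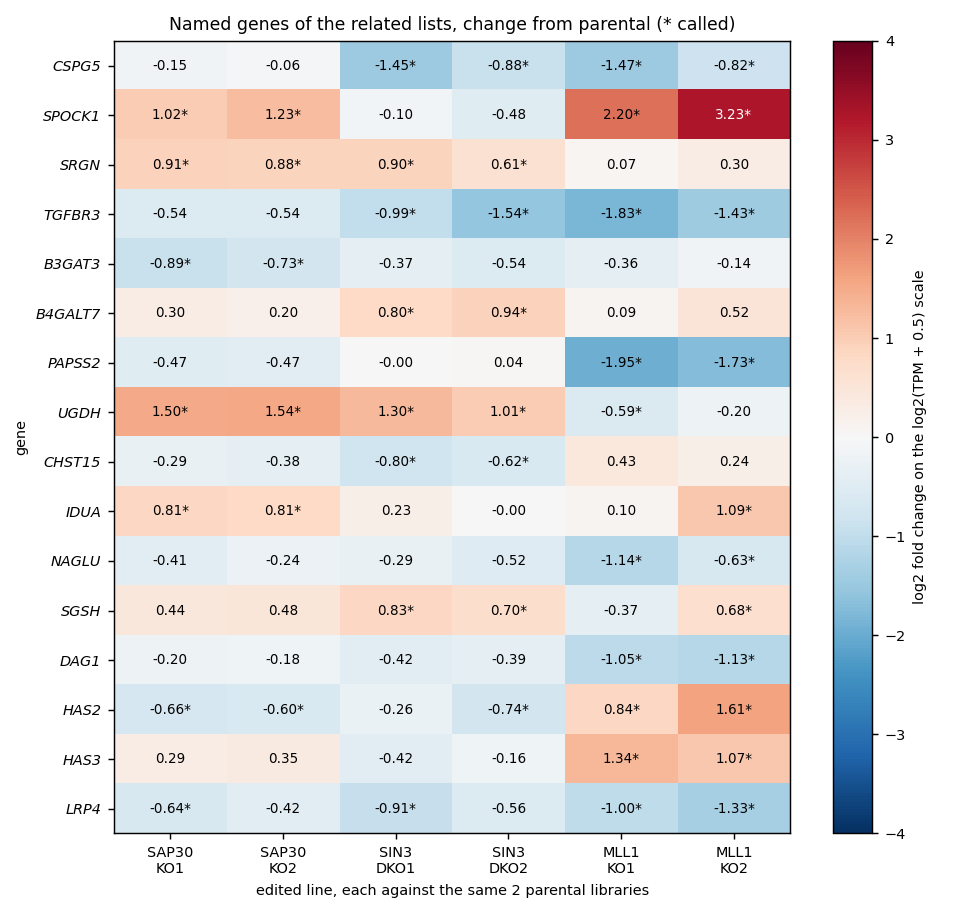
Log2 fold change from parental of the 16 named genes of the 5 related lists (rows) in each edited line (columns), on the log2(TPM + 0.5) scale, with blue lower, red higher and an asterisk on called values. PAPSS2 was -1.95 and -1.73 in the MLL1-KO lines, and UGDH was 1.01 to 1.54 in the SAP30-KO and SIN3A+SIN3B-DKO lines.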

How the data were processed

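RNA-Seq of parental MDA-MB-231 cells and 6 edited lines, 2 libraries each, was used, with groups taken from the submitters' labels. The authors made KAPA mRNA libraries, used an Illumina NextSeq for sequencing and deposited a table of values by gene and library, with replicates kept apart. The submitters' processing notes name FastQC 0.11.2, TopHat, featureCounts and hg19, and the annotation is not given in the sources used here. The deposited values are named RPKM, but each library sums to 1000000, as TPM do, and they were treated as TPM. In such values a rise of some genes lowers the rest, and differences in total RNA cannot be seen. The smallest steps of the values gave whole reads for 18519 of 18519 genes above 0 (tolerance 0.06 reads, largest deviation 0.0221). The floor of 3 reads covers counting error only, while the 95% intervals come from the limma fit and cover the spread between libraries.

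Genes with at least 1 TPM in at least 2 of 14 libraries (13540) were fitted as log2(TPM + 0.5) by limma (version 3.58.1, R version 4.3.3) to 7 group means with a variance trend (7 residual and 3.6 prior degrees of freedom). The log2 scale understates changes of low genes. Adjusted p values are Benjamini-Hochberg values over all genes tested within a comparison. On simulated data for MLL1-KO1 against parental, over 13162 genes, 89 of 100 genes changed 2-fold and 100 of 100 changed 4-fold were called. The simulation gave every gene and library the same spread beyond counting noise, and changed only genes above a minimum of parental reads. Recovery at the uneven spread of the real libraries, or for genes as low as VCAN, was not tested. The 2 libraries of every condition were further apart than sampling noise (chi-square per degree of freedom 1.458 to 7.661) and were counted separately.

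The members and lists were chosen with earlier results of these data known. All members and targeted genes are named. Of each other list, genes called in the same direction in all 6 lines were to be named (there were none), and, among genes called in the same direction in both lines of a genotype, the 2 highest and 2 lowest by mean change. Alternatives were pseudocounts of 0.1 and 1, no filter, quantile normalization, median ratio scaling, fold minimums of 2 and none, only the libraries compared, a replicate block, leaving out each library, voom on recovered reads, and subtraction of the running median of 51 neighbouring genes, for the 13062 genes with a position. Positions are from GENCODE 44 on GRCh37, and upstream sequences from RefSeq on GRCh38.p14.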

Additional observations from a re-analysis of the deposited data

Results flagged for a closer look

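Differences between lines or genotypes under the same contrast that passed the test of the difference itself (limma, adjusted p under 0.05 and at least 1.5-fold) are gathered here. They were all described in the report. Between lines of a genotype, CSPG4 differed by -0.99 (SIN3A+SIN3B-DKO1 minus SIN3A+SIN3B-DKO2) and by -0.72 (MLL1-KO1 minus MLL1-KO2), and GPC1 by 1.24 (MLL1-KO1 minus MLL1-KO2). For GPC1, the 51 genes around it had a median change from parental of -0.80 in MLL1-KO2 and 0.01 in MLL1-KO1, and its difference was 0.42 with these medians subtracted. The part of a regional change in the GPC1 value was not tested further.

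Between genotypes, VCAN differed by -1.19 (SAP30-KO minus SIN3A+SIN3B-DKO), a description only, because it passed the filter through the SIN3A+SIN3B-DKO libraries. For MLL1-KO minus SAP30-KO the values were -3.14 for HSPG2, -1.41 for SDC2, -0.82 for CSPG4, 0.93 for SDC1, 0.62 for VCAN and 0.61 for SDC4. For MLL1-KO minus SIN3A+SIN3B-DKO they were -3.38 for HSPG2, -1.41 for SDC2, -1.01 for CSPG4 and 0.85 for SDC1. No group had more than 2 libraries, so no library could be set against the others of its group as an outlier.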

How the results depend on the processing

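The 12 counts of called members were recomputed under each alternative, and 175 of 192 such counts stayed within 1.5 times the reported count. An equal count can hold other members. Under quantile normalization the 2 between the MLL1-KO lines were GPC1 and HSPG2, where they had been CSPG4 and GPC1. The count between the SAP30-KO lines was 0 in every setting. The fold minimum moved the counts most. With a minimum of 2 the counts were 1 in SAP30-KO1, 1 in SAP30-KO2, 3 in SIN3A+SIN3B-DKO1 and 3 in MLL1-KO1 against parental, 0 between the SIN3A+SIN3B-DKO lines, 1 between the MLL1-KO lines and 2 for MLL1-KO against SAP30-KO. With no minimum they were 8 in SAP30-KO1, 8 in SAP30-KO2 and 8 in SIN3A+SIN3B-DKO2 against parental, 4 between the SIN3A+SIN3B-DKO lines, 7 between the MLL1-KO lines, 5 for SAP30-KO against SIN3A+SIN3B-DKO and 9 for MLL1-KO against SIN3A+SIN3B-DKO. The shares of all genes at these minimums are not given here, so the counts are no result about the members. At an unadjusted limma p under 0.05, 7609, 7719, 7534, 3890, 6723, 7428 and 9496 of all 13540 genes passed in the comparisons named for no minimum, in the same order. Fitting only the libraries compared gave 0 between the SIN3A+SIN3B-DKO lines, with fewer samples behind the spread. A pseudocount of 1 and the neighbour median each gave 1 between the MLL1-KO lines. For these settings the cause was not tested further. Leaving out each library gave 3 to 5 in SAP30-KO1, 2 to 3 in SAP30-KO2, 5 to 6 in SIN3A+SIN3B-DKO1, 4 to 4 in SIN3A+SIN3B-DKO2, 6 to 6 in MLL1-KO1 and 6 to 6 in MLL1-KO2 against parental, 0 to 0, 1 to 1 and 2 to 3 between lines of SAP30-KO, SIN3A+SIN3B-DKO and MLL1-KO, 1 to 1 for SAP30-KO against SIN3A+SIN3B-DKO, and 5 to 7 and 4 to 6 for MLL1-KO against SAP30-KO and SIN3A+SIN3B-DKO. A library left alone in its group was assumed to vary like the other groups.

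The replicate number as a block gave the same 4, 2, 6, 4, 6 and 6 called members in the 6 lines and changed no call in the other comparisons. Libraries sharing a number did not move together: their deviations had a mean correlation of 0.015 over 21 pairs of groups (-0.073 to 0.082), so the numbers do not pair the samples.

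Of 1512 single values, 1440 kept their direction and side of the threshold, 18 lost the call, 27 gained it and 27 changed sign. None of the changes of sign had a call on either side. Leaving out 1 library turned SDC2 to 0.019 and 0.003 between the SAP30-KO lines and to 0.006, 0.009 and 0.021 for SAP30-KO against SIN3A+SIN3B-DKO. It turned SDC3 to 0.012 and 0.03 (range -0.1 to 0.03) between the SIN3A+SIN3B-DKO lines, and GPC1 to -0.034 and -0.005 (range up to 0.063) between the SAP30-KO lines and to -0.035 and -0.031 (range up to 0.041) between the SIN3A+SIN3B-DKO lines. It turned AGRN to -0.06 and -0.037 in MLL1-KO1 (range up to 0.083) and to -0.042, -0.006 and -0.014 (range up to 0.051) for SAP30-KO against SIN3A+SIN3B-DKO, CSPG4 to -0.069 and -0.09 (range up to 0.092) between the SAP30-KO lines, and VCAN to -0.056 (range up to 0.128) between the SIN3A+SIN3B-DKO lines. Neighbour subtraction turned GPC1 to -0.029 between the SIN3A+SIN3B-DKO lines and to 0.042 for MLL1-KO against SIN3A+SIN3B-DKO, and CSPG4 to -0.021 between the SAP30-KO lines. Scaling by the median ratio turned AGRN to -0.01 for SAP30-KO against SIN3A+SIN3B-DKO and CSPG4 to -0.01 between the SAP30-KO lines, voom turned AGRN to -0.005 in the former, and quantile normalization turned CSPG4 to -0.012 between the SAP30-KO lines and VCAN to 0.162 in SAP30-KO1. VCAN, with 16 to 126 reads a library, and CSPG4 in edited lines, with 24 to 201, are the members that depth limits most.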
